A study of Rattus norvegicus with 10 samples.

Results

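A named set of keratin genes was followed in adult rat β-cells through the silencing of the transcriptional repressor Scrt1. Krt80, the member with the largest fitted change, is at the centre. The 7 genes were Krt7, Krt8, Krt10, Krt18, Krt19, Krt20 and Krt80, chosen by name from the 47 keratin genes and 23918 genes in the table. They were chosen with earlier results of the same contrast known, so their levels and changes are given as a description, and nothing is read from whether the fit across all genes calls a member. Islets of adult male Sprague-Dawley rats were dispersed, β-cells were sorted by FACS on their autofluorescence, and the sorted cells were plated on extracellular matrix made by rat bladder cancer cells. Cells received either a pool of 4 siRNAs against rat Scrt1 (siScrt1, 5 libraries, replicates A to E) or a negative control siRNA (siCtrl, 5 libraries, replicates 1 to 5), both with Lipofectamine RNAiMAX. RNA was taken 48 h later and sequenced as single-end reads. Nothing in the sources used here says whether the 5 libraries of a group came from separate animals or cultures, so p-values measure only the spread between these libraries.

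Keratins are the intermediate filament proteins of epithelial cells. A filament is built from obligate pairs of a type I (acidic) and a type II (basic to neutral) keratin, and a keratin without a partner is degraded. KRT8 and KRT18 are the pair of simple epithelia, including pancreatic islet and acinar cells. KRT7 (type II) and KRT19 (type I) are typical of ducts, KRT20 (type I) of the gut lining and the bladder, and KRT10 (type I) of the differentiating layers of the epidermis. KRT80 is a type II keratin found in many epithelia. Scrt1 is a zinc finger repressor of the Snail superfamily, whose members bind E-boxes, short DNA sites with the core CAGGTG.

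Promoter sequences from RefSeq were matched by symbol for Krt8, Krt10, Krt18 and Krt20, and promoters of Krt7, Krt19 and Krt80 were not analysed here. The partners Krt8 and Krt18 are shown because they lie close together, pair in the filament and differ in the E-box core. The 250 bases before the transcription start are given 5′ to 3′ on the strand of the gene, for Krt8 at chr7:135010340-135010589 (minus strand) and for Krt18 at chr7:135035918-135036167 (plus strand) of build GRCr8. Capitals mark the core, which reads CACCTG on this strand.
Krt8: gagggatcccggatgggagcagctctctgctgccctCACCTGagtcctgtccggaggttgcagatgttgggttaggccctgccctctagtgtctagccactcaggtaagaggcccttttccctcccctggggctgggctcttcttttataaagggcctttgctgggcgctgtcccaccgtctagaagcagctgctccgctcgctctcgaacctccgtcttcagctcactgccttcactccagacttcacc
Krt18: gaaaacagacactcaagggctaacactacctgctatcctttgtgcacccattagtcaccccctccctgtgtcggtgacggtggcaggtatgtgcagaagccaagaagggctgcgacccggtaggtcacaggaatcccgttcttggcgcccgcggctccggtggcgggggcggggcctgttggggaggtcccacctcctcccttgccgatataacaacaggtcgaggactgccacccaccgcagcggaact
The core stood 214 bases before the start of Krt8 and was not in the windows of Krt10, Krt18 or Krt20. On either strand, CAGGTG was in 15.9% of 33469 windows of this length. The general E-box CANNTG, which includes the core, was in 65.5% of windows and matched 3 times in Krt8, 2 times in Krt10, and not in Krt18 or Krt20. The longer letters CAACAGGTG, which also contain the core, were in 0.176% of windows and in none of the 4. The Krt18 window held 15 CpG dinucleotides with a GC content of 62%, against 8 and 60% for Krt8, 6 and 43.6% for Krt10, and 3 and 47.2% for Krt20. These matches describe letters only.

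Libraries held 11901342 to 17444034 recovered reads, that is, the deposited scaled estimated counts divided by what 1 read was worth in that library. Levels between libraries are given as CPM (recovered reads scaled to the library total). Levels between genes are given as the deposited TPM, which also takes transcript length into account. The target of the siRNAs, Scrt1, fell from a control mean of 14.1 ± 2.61 CPM to 3.58 ± 1.63 CPM (SD, 5 libraries each). The p of an exact permutation test (two-sided) was 0.00794, which is as small as 5 against 5 libraries allow. Of 12941 genes that passed the filter on low values, 136 changed (1.05%; limma, Benjamini-Hochberg adjusted p-value under 0.05), 48 upwards and 88 downwards, and 259 with a term for library number. The CPM of the groups did not overlap for 383 genes (2.96%).

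Krt80 (ENSRNOG00000025994), which has 1 transcript of 3063 bases in the table, was low in control β-cells and higher in every library after Scrt1 silencing. The controls, from replicate 1 to 5, had 27, 16, 26, 39 and 14 reads. The silenced cells, from replicate A to E, had 67, 162, 78, 163 and 152 reads. Every siScrt1 library therefore held more Krt80 reads than any control library, with replicates A and C lower than the other three. All these estimates were whole numbers. As shares of the library, these were 2.02, 1.23, 1.58, 2.64 and 1.07 CPM in siCtrl. The siScrt1 libraries had 5.63, 9.29, 5.66, 10.8 and 9.92 CPM. The groups did not overlap, and the lowest siScrt1 library lay 2.14-fold above the highest control. As a description of counting error only, the exact 95% Poisson intervals of those libraries were 1.87 to 3.60 CPM (siCtrl replicate 4) and 4.36 to 7.15 CPM (siScrt1 replicate A). Mean Krt80 was 1.71 ± 0.634 CPM without and 8.25 ± 2.43 CPM with silencing (SD, 5 libraries each), a ratio of 4.83. The fitted log2 fold change was 2.30 (SE 0.267, 95% interval 1.72 to 2.88). In bulk RNA, a few cells with much Krt80 and many cells with a little cannot be told apart, nor can fewer cells of a type and less RNA per cell.

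**Figure D1:**
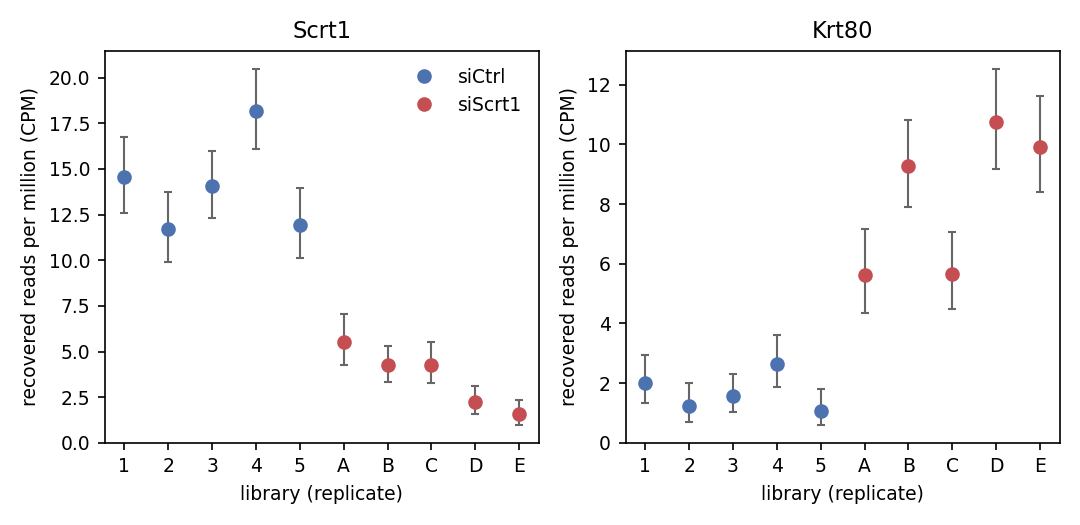
Scrt1 (left) and Krt80 (right) in each library, as CPM (linear axes from 0), with siCtrl replicates 1 to 5 in blue, siScrt1 replicates A to E in red, and bars for 95% Poisson intervals of the count. Krt80 lies between 1.07 and 2.64 CPM in siCtrl and between 5.63 and 10.8 CPM in siScrt1, while Scrt1 is lower in every siScrt1 library than in any control.

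Among all tested genes, 9 had a larger fitted rise than Krt80, and none of these 9 was called. The level of Krt80 stayed low in both groups. The siCtrl mean of Krt80 stood at the 9.41th percentile of the tested genes and the siScrt1 mean at the 29.1th, and the median tested gene had 21.2 CPM in siCtrl. When each siScrt1 library was set against the control with the same library number in the deposited table (A to E as numbers 1 to 5), Krt80 was 2.79, 7.53, 3.58, 4.08 and 9.27 times as high. Scrt1 in the same pairs was at 0.381, 0.362, 0.305, 0.123 and 0.131 of the control. The order of the pairs by Krt80 was not that by Scrt1, since the pair with the lowest remaining Scrt1, number 4, was the third highest in Krt80.

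Of the 7 keratins, 6 passed the filter, 1 was called and 1 had groups that did not overlap, in both cases Krt80. All genes gave the 1.05% and 2.96% above, and since the members were chosen on this contrast nothing is read from the comparison. The median log2 fold change of the 6 was 0.03, against 0.0035 over all tested genes. Without Krt80, the other 5 ranged from -0.11 to 0.12.

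**Figure D2:**
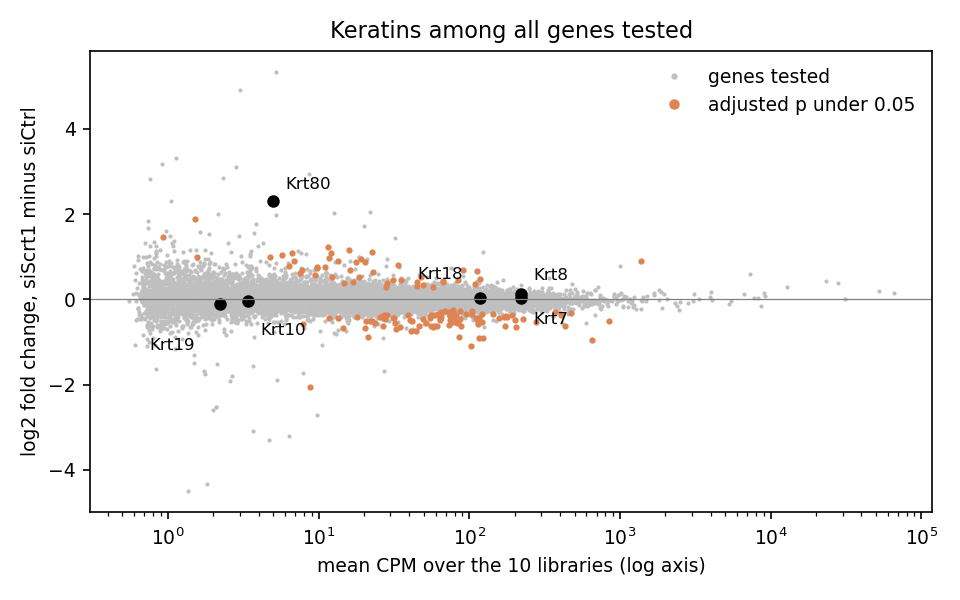
Fitted log2 fold change (siScrt1 minus siCtrl) against the mean level over the 10 libraries (CPM, log axis) for the 12941 genes tested (grey), the 136 genes called (orange) and the 6 keratins that passed the filter (black). Krt80 stands at 2.30, and the other 5 lie between -0.11 and 0.12 whatever their level.

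The remaining type II keratins were abundant and near equal in both groups. Krt7 (ENSRNOG00000008057) had 189, 184, 212, 259.8 and 229 CPM in siCtrl. Its siScrt1 libraries had 198, 233, 225, 259 and 217 CPM. The groups overlapped over most of their range, with siCtrl replicate 4 and siScrt1 replicate D the highest of their groups. The fitted log2 fold change of Krt7 was 0.12 (SE 0.0939, 95% interval -0.09 to 0.32), with means of 215 ± 31.0 and 227 ± 22.4 CPM (SD, n = 5 each). Krt8 (ENSRNOG00000009779), the type II partner of Krt18, had 221, 222, 263, 209.5 and 193 CPM in siCtrl. In siScrt1 Krt8 had 205, 239, 224, 224 and 206 CPM. All siScrt1 values of Krt8 lay within the range of the controls. Mean Krt8 was 222 ± 25.7 CPM in siCtrl, slightly above the 219.7 ± 14.0 CPM of siScrt1. The fitted log2 fold change, which rests on the mean log2 of the authors' scaled counts and not on CPM, was 0.03 (SE 0.0960, 95% interval -0.18 to 0.23), and it was -0.0087 with limma-voom on recovered reads. The direction for Krt8 thus depends on the scale.

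Among the type I keratins, Krt18 (ENSRNOG00000047393) was the abundant member. It had 116, 134, 123, 117 and 97.4 CPM in siCtrl. In siScrt1 it had 103, 139, 116, 128 and 107 CPM. The groups overlapped, with means of 118 ± 13.5 and 119 ± 14.9 CPM (SD, n = 5 each) and a log2 fold change of 0.04 (SE 0.0969, 95% interval -0.17 to 0.25). Krt10 (ENSRNOG00000030170), the epidermal keratin, was low in all libraries. It had 2.99, 3.85, 2.61, 4.19 and 3.82 CPM in siCtrl. In siScrt1 it had 3.28, 3.27, 2.98, 3.70 and 3.13 CPM, all inside the range of the controls. Its log2 fold change was -0.04 (SE 0.146, 95% interval -0.36 to 0.27).

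Krt19 (ENSRNOG00000014233), the duct keratin, was the most variable. It had 24, 20, 41, 54 and 23 reads in siCtrl. In siScrt1 it had 10, 45, 22.7, 66 and 26 reads. Both the lowest and the highest value were siScrt1 libraries, replicates A and D. Krt19 averaged 2.25 ± 0.862 CPM in controls and 2.22 ± 1.34 CPM after silencing (SD, 5 libraries each). The log2 fold change was -0.11, with a wide 95% interval from -0.92 to 0.69. Krt20 (ENSRNOG00000027139) had 1 to 4 reads per library, 14 in all in siCtrl and 10.0 in siScrt1, did not pass the filter, and showed no difference detectable at this depth.

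**Figure D3:**
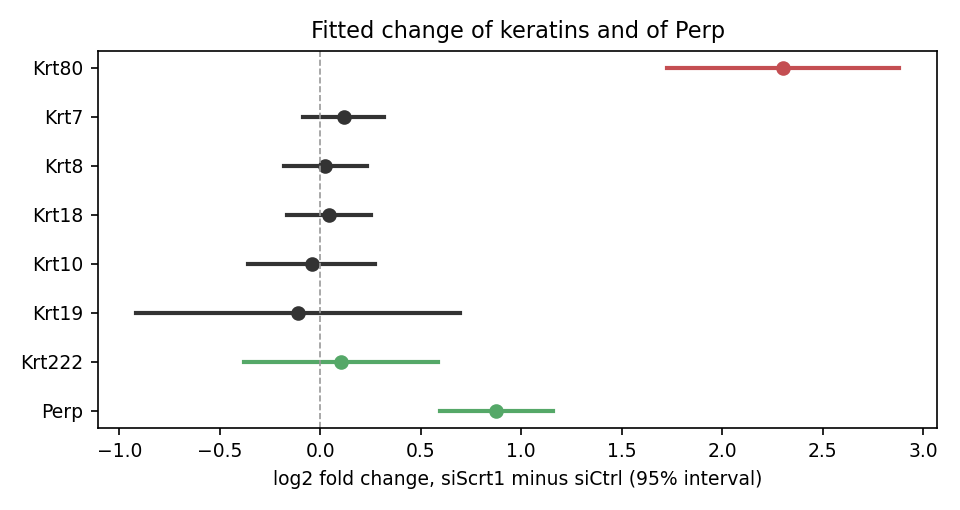
Fitted log2 fold change (siScrt1 minus siCtrl) with its 95% interval for the 6 keratins that passed the filter (black, Krt80 in red), and for Krt222 and the desmosome gene Perp (green). The interval of Krt80 runs from 1.72 to 2.88, which is a description only, since the members were chosen with this contrast known. That of Perp, which is not a member, lies above 0. The intervals of the other genes include 0, with the widest for Krt19.

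On the scale that takes transcript length into account, the order of the keratins in control β-cells was Krt7, Krt8, Krt18, Krt19, Krt10, Krt80 and Krt20. Krt7 (134 ± 18.9 TPM) and Krt8 (129 TPM, 111 to 161) overlapped, and Krt7 was above Krt8 in 2 of 5 controls. Krt18 followed at 88.4 ± 10.4 TPM, below both in every control library. Far below came Krt19 (1.67 ± 0.633 TPM) and Krt10 (1.65 ± 0.241 TPM), which overlapped. Krt80 (0.526 ± 0.196 TPM) lay below these without overlap with Krt10, and overlapped Krt20 (0.234 ± 0.0946 TPM). In siScrt1, Krt80 stood above Krt19 and Krt10, at 2.58 ± 0.694 TPM. Its range there overlapped that of Krt19 (1.67 ± 0.932 TPM), though it was above Krt19 within each of the 5 libraries, and did not overlap that of Krt10 (1.61 ± 0.101 TPM). Krt7 (144 ± 9.46 TPM), Krt8 (131 ± 8.46 TPM) and Krt18 (91.3 ± 10.4 TPM) kept their places, with Krt7 above Krt8 in 5 of 5 siScrt1 libraries.

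**Figure D4:**
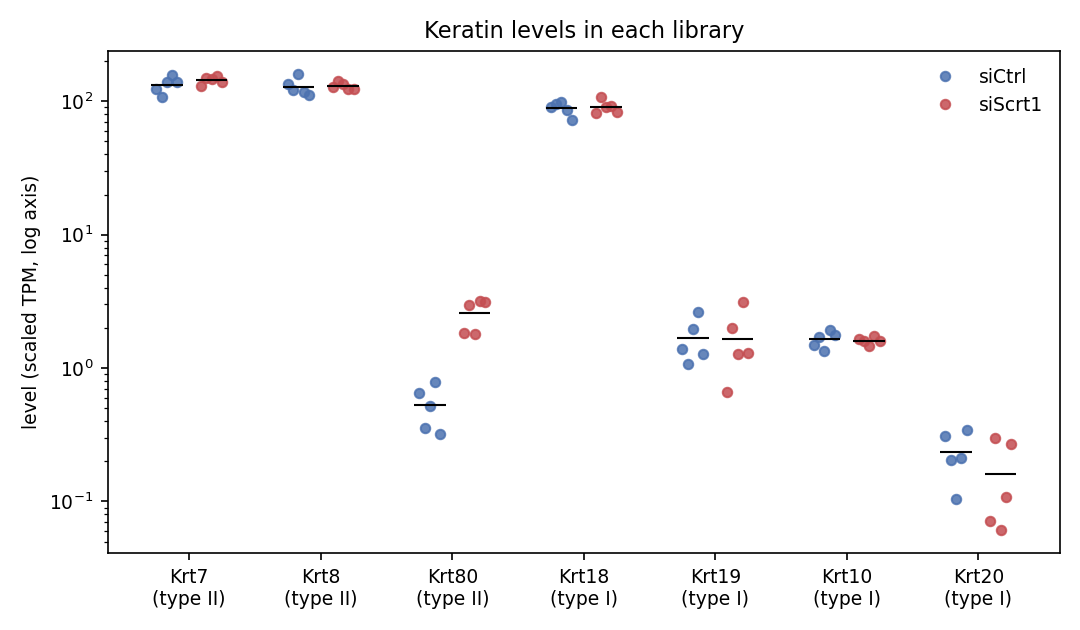
Level of the 7 keratins in each library as scaled TPM (log axis), type II keratins to the left and type I to the right, with siCtrl in blue, siScrt1 in red, and black lines for group means (n = 5 each). Krt7, Krt8 and Krt18 lie between 71.9 and 161 TPM with overlapping groups, Krt10, Krt19 and Krt20 lie far lower and overlap too, and Krt80 is at 0.323 to 0.787 TPM in siCtrl and 1.82 to 3.17 TPM in siScrt1.

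The keratin transcripts of these cells were thus almost wholly Krt7, Krt8 and Krt18, which made up 98.8% ± 0.218 of the TPM of the 7 genes in controls and 98.4% ± 0.394 after silencing (SD, n = 5 each). The summed TPM was 355 ± 32.5 in siCtrl and 372 ± 25.2 in siScrt1. Krt80 took 0.147% ± 0.0503 of this sum in siCtrl and 0.694% ± 0.181 in siScrt1. Relative to Krt7, the type II keratin with the highest mean, Krt80 stood at 0.391% ± 0.123 of its TPM in siCtrl and 1.79% ± 0.436 in siScrt1. The balance of the types was similar in both groups. Type II exceeded type I transcripts 2.88 ± 0.372 times in siCtrl and 2.94 ± 0.184 times in siScrt1, and the ratio of Krt8 to Krt18 ran from 1.27 to 1.64 and from 1.33 to 1.55.

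Reads fell mainly on 1 transcript for the abundant genes. The main Krt7 transcript (1613 bases) took 98.1% to 99.7% of the reads of its gene across libraries, and that of Krt8 (1724 bases) at least 99.5%. Krt18, Krt19 and Krt80 each had a single transcript. Krt10 differed between libraries. Its shorter transcript (1863 bases) was given 5.49, 4.11, 7.76, 7.63 and 4.10 reads in siCtrl. In siScrt1 it was given 0, 0, 0, 19.5 and 24.2 reads, the last being 50.4% of the gene. The siScrt1 libraries thus lay on both sides of the controls. kallisto shares reads that fit both transcripts between them, and at 39 to 62 reads per library this split is imprecise.

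Within groups, Krt19 and Krt80 spread most, with pooled SDs of 0.68 and 0.48 on the log2 scale, against 0.16 to 0.17 for Krt7, Krt8, Krt10 and Krt18. With group means removed, Krt8 and Krt18 varied together (Pearson r = 0.75 over the 10 libraries, 0.64 to 0.83 when each library was left out). The duct-type pair Krt7 and Krt19 did so as well (r = 0.75, 0.69 to 0.81), and so did Krt19 and Krt80 (r = 0.71, 0.64 to 0.79). Krt7 and Krt80 had r = 0.48 and Krt7 and Krt8 r = 0.07. Krt8 and Krt10 had r = -0.81 (-0.88 to -0.57), but this came mainly from the controls, with r = -0.91 in siCtrl and -0.21 in siScrt1. These values share libraries and scaling factors and are descriptions. Krt7 and Krt19 were both highest in siCtrl replicate 4 and siScrt1 replicate D, as was Krt80.

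The same 2 libraries had the highest sums of mesenchymal markers, namely 16.8 CPM (siCtrl replicate 4) and 30.9 CPM (siScrt1 replicate D). The remaining 8 libraries had 3.71 to 8.74 CPM. Without both libraries, the log2 fold change of Krt80 was 2.38. The part of mesenchymal cells in the variation of Krt7, Krt19 and Krt80 was not tested.

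**Figure D5:**
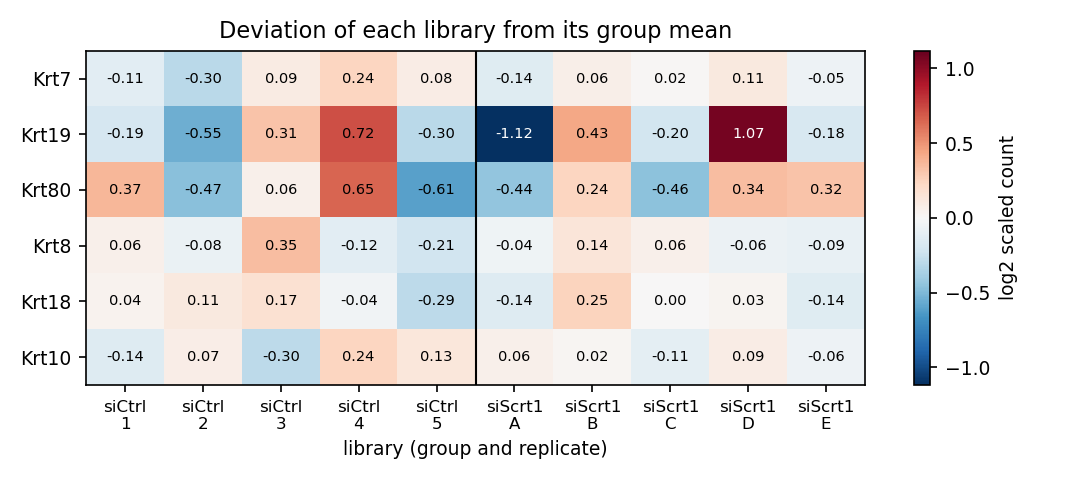
Deviation of each library from its group mean (log2 scaled count, blue below and red above) for the 6 keratins that passed the filter, siCtrl to the left of the line and siScrt1 to the right. Krt7, Krt19 and Krt80 are above the mean together in siCtrl replicate 4 (0.24, 0.72 and 0.65) and siScrt1 replicate D (0.11, 1.07 and 0.34), and so is Krt10 (0.24 and 0.09), while Krt8 is below it in both.

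Genes whose pattern was most like that of the keratins were sought among 10124 genes that averaged 5 CPM or more. Over the 10 libraries, group difference included, those closest to Krt80 were Mov10 (r = 0.95, a helicase of RNA silencing), Fyco1 (0.95, an adaptor for autophagosome transport), Itpr2 (0.94, an inositol trisphosphate receptor), Caskin2 (0.94) and Irf2bpl (0.94). With group means removed, Krt8 went most closely with Ddost (0.96, a subunit of the oligosaccharyltransferase), Rack1 (0.96, a ribosomal scaffold), Pld3 (0.95), RGD1310819 (0.94) and Eef2 (0.94, a translation elongation factor). Its partner Krt18 went with Gstz1, LOC100362432, Rps6ka2, Fez1 and Klhl21 (0.91 to 0.94), and no gene was on both lists. Krt19 went with Fntb (0.92, the beta subunit of farnesyltransferase), Bnip1 (0.92), Mapkapk5 (0.91) and Glo1 (0.90). These are the highest of many values over 10 shared libraries, and they are given with no p. Those for Krt80 include the contrast on which the members were chosen. The 5 genes named for Krt80 all had positive log2 fold changes (0.31 to 1.23), so shared variation apart from the groups is not shown for them.

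The rest of the family was nearly silent in both groups. Of the 40 other keratin genes, 18 had no read in any library, which allows up to 3 reads in each, 16 had 1 to 14 reads over all libraries, and 6 had at least 15. These 6 were Krt222 (467 reads), Krt26 (106), Krt73 (60), Krt12 (35), Krt83 (33) and Krt5 (25). Only Krt222, which encodes a short keratin-like protein, passed the filter, and it was not called, with 3.27 ± 1.11 CPM (siCtrl) and 3.30 ± 0.417 CPM (siScrt1; SD, n = 5 each; log2 fold change 0.10, SE 0.223, limma adjusted p = 0.903). The basal keratin pair of stratified epithelia, Krt5 and Krt14, had 25 and 11.3 reads in all.

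Krt80 lies at the edge of the type II keratin cluster on chromosome 7, and 10 of the 12 genes that follow it in the annotation (RefSeq, GRCr8, used for gene order only) are keratins. On the other side, the 3 nearest tested genes were Atg101 (autophagy initiation), Nr4a1 (a nuclear receptor of the immediate early response) and Acvr1b (an activin receptor), and none was called. The log2 fold change was -0.02 for Atg101 (limma adjusted p = 0.976), 0.32 for Nr4a1 (0.620) and 0.44 for Acvr1b (0.456). The 3 nearest tested genes on the keratin side were Krt7, Krt8 and Krt18, described above, with 2, 34 and 36 genes between them and Krt80.

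Proteins that keratin filaments attach to, or that handle keratins, were taken from 4 lists and tested in the same limma fit. Of the desmosome and linker genes, 14 of 16 listed were tested, 1 rose and none fell (1.05% of all tested genes were called in either direction), and the median log2 fold change was 0.06. An unadjusted p under 0.05 was found for 4 of the 14, against 11.1% of all tested genes, and 11 had a positive log2 fold change, against 51% of all. The gene that rose was Perp, which encodes a membrane protein of desmosomes and a target of p53. Perp had 13.0, 14.5, 13.3, 13.2 and 18.6 CPM in siCtrl. In siScrt1 it had 21.1, 26.9, 22.2, 27.3 and 33.7 CPM. The groups did not overlap, and replicates 5 and E were the highest of each. Perp rose from 14.5 ± 2.35 to 26.2 ± 5.00 CPM (SD, n = 5 each; log2 fold change 0.88, SE 0.129, limma adjusted p = 0.00568). Without both libraries high in mesenchymal markers its log2 fold change was 0.84, with a limma adjusted p of 0.0621.

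None of the other lists had a gene that was called by limma. Of the other intermediate filament genes, 10 of 14 were tested, their median log2 fold change was 0.07, and none was at an unadjusted p under 0.05. Those with the smallest p were Nefl, the light neurofilament (log2 fold change -0.51, limma adjusted p = 0.655), and Lmna, which encodes the nuclear lamins A and C (0.10, limma adjusted p = 0.684). Of 10 genes for keratin binding and turnover, all tested, 1 had an unadjusted p under 0.05, near the 11.1% of all genes, and the median was -0.06. Prkce, a kinase that phosphorylates keratin, had 0.27 (limma adjusted p = 0.331), and Dnajb6, a chaperone that binds KRT18, had -0.11 (0.557). Of 15 genes for epithelial transcription factors, 12 were tested, 10 had a positive log2 fold change, against 51% of all tested genes, and the median was 0.20, against 0.0035. In that list 1 gene had an unadjusted p under 0.05, again near the 11.1% of all genes. Fosl1, an AP-1 subunit, had 0.80 (limma adjusted p = 0.451), and Ovol2, a repressor that maintains epithelial state, had 0.22 (0.534).

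The identity of the cells was checked with marker sums, from which the 7 keratins were left out. β-cell markers summed to 126450 ± 26207 CPM (siCtrl) and 135234 ± 18710 CPM (siScrt1), with Ins1 at 65826 CPM on average. α-cell markers had 945 and 854 CPM, δ- and PP-cell markers 41.4 and 44.7 CPM, acinar markers 3.48 and 3.53 CPM, endothelial markers 0.787 and 0.808 CPM and immune markers 3.51 and 3.88 CPM. Since Krt7 and Krt19 are duct keratins, the duct list bears most directly on them. It summed to 150 ± 12.3 CPM (131 to 164) in siCtrl and 139 ± 6.14 CPM (129 to 146) in siScrt1. Most of the sum came from Bicc1 (72.4 CPM), Slc4a4 (25.9) and Prom1 (18.8), while the duct markers Sox9 (0.843 CPM), Cftr (1.20), Spp1 (0.254) and Muc1 (0.108) were near 0 in all libraries. Urothelial markers, of interest because of the bladder-derived matrix, summed to 0.363 to 1.05 CPM over all libraries, with Upk2 and Upk3a at 0, and mesothelial markers to 0.198 CPM at most, with Wt1 and Calb2 at 0. Mesenchymal markers had means of 7.44 ± 5.39 and 11.2 ± 11.2 CPM. For none of the 10 sums did the difference between groups pass the test (exact two-sided permutation tests, 5 against 5; smallest p = 0.111, for the duct list; adjusted over the 10 lists p = 0.944). The β-cell sum came mostly from Ins1, Ins2 (52145 CPM) and Iapp (8588 CPM), so it says little about the other β-cell markers. Of the 9 β-cell markers tested singly with limma, 3 had an unadjusted p under 0.05, against 11.1% of all tested genes. None of the 9 was called.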

How the data were processed

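The 10 RNA-seq libraries of sorted β-cells were grouped by the genotype label. The authors used kallisto to assign single-end TruSeq reads to Rnor6 transcripts and scaled the estimates with Sleuth. The submitters' processing notes also name FastQC and Trimmomatic, and versions are not given in the sources used here. The deposited values, scaled estimated counts and scaled TPM for 31715 transcripts, are a signal normalized between libraries by the authors and not whole counts. A further 9363 rows without values were left out.

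Division by the step of each library (0.842 to 1.26 scaled counts per read) gave recovered reads and CPM, and library totals came out whole. Of the transcript values above 0, 50.3% were whole within 0.01, so no count model was the main test. Estimates were summed per Ensembl gene. Genes needed the CPM of 10 reads in a median library in at least 5 libraries and 15 reads in all, and log2(scaled count + 0.5) was fitted with limma 3.58.1 (lmFit and eBayes with trend, group as the only term) in R 4.3.3. Fold changes on this scale understate the change of genes with few reads. Adjusted p-values are Benjamini-Hochberg over 12941 genes, with a threshold of 0.05. Single values were compared with exact two-sided permutation tests (Python 3.11.15, scipy 1.17.1, pandas 2.3.3), and plots were drawn with matplotlib 3.10.9. The fit was also run on simulated reads, drawn independently with the same extra spread for every gene and scaled in another way. These settings differ from the data, so nothing is read from that run. Poisson intervals of counts cover counting error only.

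The members, lists and tests were chosen with earlier results of these data known. Named genes were the 7 keratins, Scrt1, other keratins tested, in each partner list the genes called or else the 2 with the smallest p, the 5 genes most correlated with Krt80 and, within groups, with Krt8, Krt18 and Krt19, and the 3 tested genes on each side of Krt80. A gene that met this rule is left out here. The library numbers given in the deposited file were used to pair the libraries. No source used here says that same-numbered libraries share a preparation. Same-numbered libraries deviated together from their group means in all 5 pairs (r 0.131 to 0.351 across genes). With siScrt1 libraries of other numbers, the highest r of each control was -0.0410 to 0.167. Alternatives were other scalings, pseudocounts, filters, TPM, limma-voom, a replicate block and leaving out each library. Leaving out siCtrl replicate 4 and siScrt1 replicate D together was chosen after seeing the data.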

Additional observations from a re-analysis of the deposited data

Results flagged for a closer look

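In 4 of 60 groups of 5 libraries checked, 1 library stood far from the others, and chance gives about 1 in 20. For siCtrl replicate 5, Perp was at 18.6 CPM where the remaining controls had 13.0 to 14.5 CPM, and still below every siScrt1 library. In siCtrl replicate 4 the mesenchymal marker sum was 16.8 CPM, where the rest of the group had 3.71 to 6.86 CPM. In siScrt1 replicate D the same sum was 30.9 CPM, where the rest had 4.72 to 8.74 CPM. The immune marker sum was 5.16 CPM in siScrt1 replicate B, against 3.28 to 3.78 CPM in the rest of its group. No keratin value stood apart in this way.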

How the results depend on the processing

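Among the values recomputed under each alternative, 588 kept their side of the threshold. Where no test was made, this means staying within the spread between replicates. Of these 588, 9 changed sign, all of them log2 fold changes of Krt8, Krt10, Krt18 or Krt19. A further 21, for Atg101, Krt222 or marker sums, changed sign without being called and were counted apart. The 12 that moved and the 2 that lost their call are described below. The number of genes called was 259 with the replicate block (library number as a term) and 25 without siCtrl replicate 4 and siScrt1 replicate D together. It ranged from 62 to 133 when 1 library was left out, with 82, 77, 83, 87, 62 and 64 without siCtrl 4, siCtrl 5, siScrt1 B, C, D and E. The block changed no call among the keratins, neighbours or partner lists. Krt80 had a log2 fold change of 1.22 as log2(TPM + 1) and 2.10 to 2.32 under the other scalings, filters and tests, and from 2.15 to 2.47 with 1 library left out. With a mean of at least 5 CPM required, Krt80 was just below and not tested and 0 members were called, while leaving out 1 library gave 1 each time. The desmosome list had 2 genes called without siCtrl replicate 1 (range 1 to 2), and 0 without both number-4 libraries, where Perp (0.84) and Scrt1 (-1.82) each had an adjusted p of 0.0621 (limma). The cause was not tested, but that fit has 2 libraries fewer.

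With 1 library left out the log2 fold change ran from -0.38 to 0.17 for Krt19 (above 0 without siCtrl 4 or siScrt1 A), -0.12 to 0.0174 for Krt10 (above 0 without siCtrl 4), -0.0288 to 0.0863 for Krt18 (below 0 without siCtrl 5 or siScrt1 B) and -0.0281 to 0.11 for Krt8 (below 0 without siCtrl 4, siCtrl 5 or siScrt1 B). So none of these 4 had a stable direction, and Krt8 was at -0.0087 with limma-voom. Atg101 ran from -0.0867 to 0.0723, above 0 without siCtrl 3, siCtrl 4, siScrt1 A or siScrt1 C, and Krt222 from -0.0548, without siCtrl 3, to 0.25. Differences in marker sums (siScrt1 minus siCtrl, CPM) with 1 library left out ran from -6.05 to 11.4 for δ- and PP-cell, -0.318 to 0.476 for acinar, -0.0165 to 0.0486 for mesothelial, -0.0529 to 0.118 for urothelial, -0.105 to 0.118 for endothelial and -1.22 to 6.05 for mesenchymal markers. As TPM sums, the differences were 1.90 for duct, -0.00207 for mesothelial and -0.0435 for urothelial markers. Depth limited Krt20, with at most 4 reads per library, and the Krt10 isoform split.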
